A study of Homo sapiens with 6 samples.

Results

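Messenger RNA of 71 genes of ribosome biogenesis and of RNA polymerases I and III was compared between HEK293 cells treated with the quinolinol compound B23 and HEK293 cells given its solvent, DMSO. The genes were taken by symbol from the 15496 rows of the deposited table. There were 54 that matched a name pattern, namely POLR1 or POLR3 with a letter, UTP, NOP, RRP or NOL with a number, and NOC2L, NOC3L and NOC4L. A further 17 were named singly, from NCL, NPM1 and FBL to BYSL and DIMT1. HEK293 is an established human line from embryonic kidney, grown here in RPMI medium with fetal bovine serum in both groups. Each group held 3 libraries of polyadenylated RNA, and the labels give neither the dose of B23 nor the treatment time. Nothing in the labels says that the triplicates were separate cultures, so the spread behind each p-value is that among these libraries and may be technical.

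RNA polymerase I transcribes the precursor of the large ribosomal RNAs in the nucleolus, and RNA polymerase III makes 5S rRNA and transfer RNAs. The precursor is modified at sites chosen by small nucleolar RNAs, cut and folded inside the small subunit (SSU) processome and later particles, and released as the 40S and 60S subunits. The proteins doing this work are encoded by ordinary mRNAs made by RNA polymerase II, and those mRNAs are what these libraries measured; ribosomal RNA itself was not analysed here.

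Listed genes held 40950318 to 45319519 recovered reads in the B23 libraries and 45732612 to 47444126 in the DMSO libraries, and the log2 values of replicates correlated across genes with r of 0.998 to 0.999. Between replicates, reads differed beyond counting noise (chi-square over its degrees of freedom, 2.63 to 6.84), and each library counts as 1 sample. All 6 genes set as HEK293 markers were listed, among them VIM at 685 to 719 CPM in B23 and 366 to 397 CPM in DMSO, and PAX2 at 1.15 to 1.53 CPM in B23 and 5.29 to 6.65 CPM in DMSO. Of 9 markers of blood, liver, fibroblasts and endothelium, the table lists COL1A1, at 11.5 to 13.3 CPM in B23 and 9.04 to 9.69 CPM in DMSO, and DCN, at or under 0.174 CPM in every library.

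The genes did not move as a block: 36 were higher in B23 and 32 lower, and 3 were not called (POLR1D, POLR3D and RRP7A). A call here is an adjusted p under 0.05 in limma on log2(CPM + 0.5), with Benjamini-Hochberg adjustment over the 14792 genes that averaged at least 1 CPM, a filter that all 71 passed. The called share of 95.8% stands beside 88.6% of all genes tested, so being called sets these genes little apart. By direction, 50.7% were higher, where 39.6% of all genes were, and 45.1% were lower, where 49.0% of all genes were. Their median log2 difference was 0.13, against -0.10 for all genes tested, and their median absolute difference was 0.56, against 0.58. The libraries of the groups did not overlap for 67 members (94.4%), as for 88.9% of all genes, and the exceptions were POLR1D, POLR3D, RRP7A and UTP11.

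At least 2-fold higher in B23 were 9 members (12.7%, against 9.65% of all genes): RRP12, NOC4L, POLR3C, NOP58, UTP20, NOC3L, UTP14A, UTP4 and RRN3. At least 2-fold lower were 6 (8.45%, against 15.8% of all genes), among them POLR3B, POLR1B, NIP7, RRS1 and UTP15. In sum the 71 genes held 7117 ± 54.0 CPM in B23 and 5877 ± 42.1 CPM in DMSO (SD, n = 3 each), a ratio of 1.21. The deposited CPM of all listed genes also summed higher in B23, so the members took 0.796 ± 0.0043% of the listed CPM in B23 and 0.783 ± 0.0047% in DMSO (SD, n = 3 each). RNA content per cell was not measured, and more of a transcript per cell cannot be told apart from a larger share of a smaller RNA pool.

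**Figure D1:**
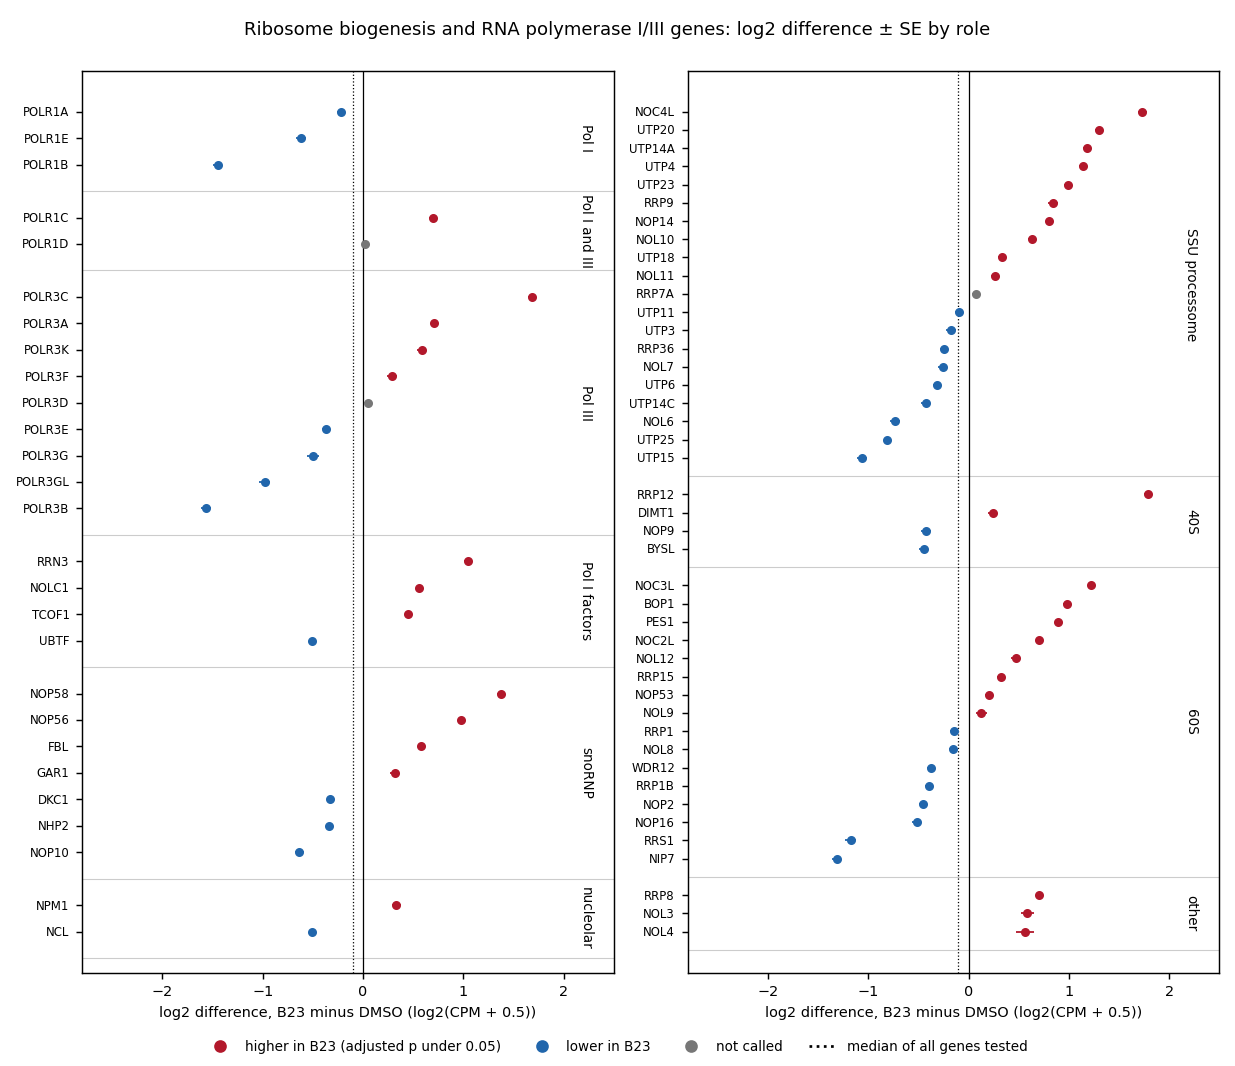
Log2 difference, B23 minus DMSO, of 70 of the 71 genes on the log2(CPM + 0.5) scale with the SE of the limma fit, grouped by role; red points were higher, blue lower and grey not called, and the dotted line is the median of all genes tested, -0.10. Most role groups hold genes on both sides of 0, while the 3 core subunits of RNA polymerase I lie on the lower side.

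Because no source used here says how the CPM were scaled, every member was also fitted under 4 other scalings. The median of all genes lay at 0.0015 with median-of-ratios scaling, -0.029 with TMM, -0.027 with quantile normalization and -0.34 with the listed genes scaled to 1 total. The direction and call held in all 5 for 53 members, 25 higher and 28 lower. It did not for 15 called members, 11 of them higher and 4 lower, which include NPM1, FBL, NOLC1 and TCOF1. Exons of 22 members overlap another listed gene that has at least 10% of their level, on either strand, and such genes are named beside the values printed here that they touch. The median of the members fell below 0 with quantile normalization, at -0.097, and with the listed-gene total, at -0.12. It lay below the median of all genes only with quantile normalization.

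**Figure D2:**
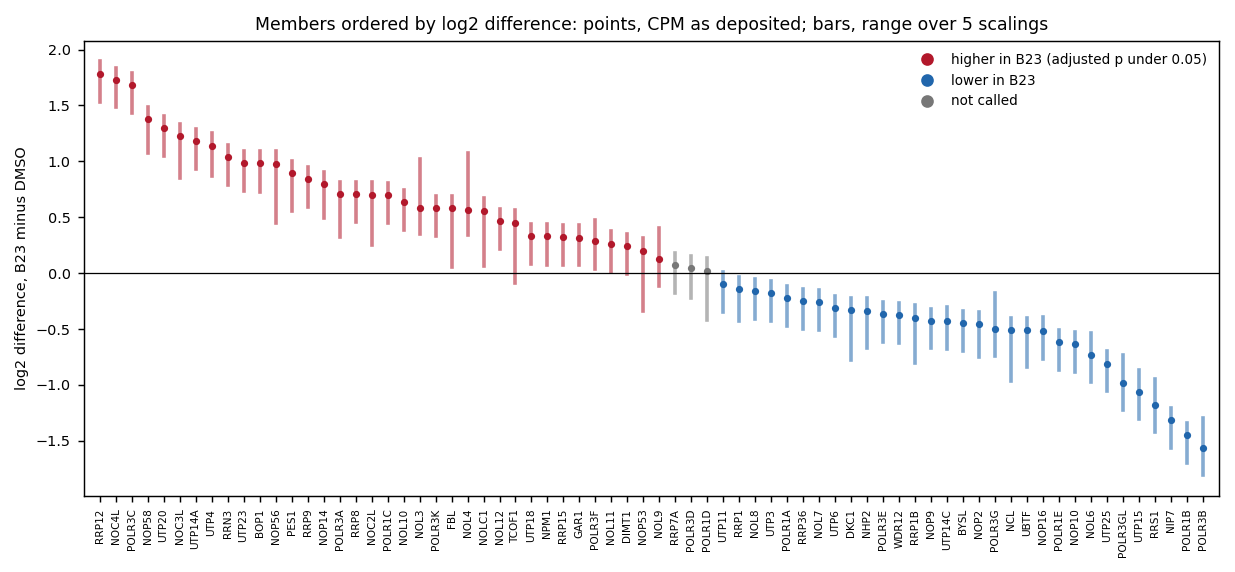
The same 70 members ordered by log2 difference, B23 minus DMSO, with points for the CPM as deposited, bars for the range over 5 scalings and colours for the call as in the plot by role. The genes at both ends, from RRP12 at 1.79 to POLR3B at -1.57, stay on their side of 0 over the whole bar, and those in the middle cross it.

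The 3 members specific to RNA polymerase I were all lower in B23, where 49.0% of all genes tested were lower. Their median log2 difference was -0.62, against -0.10 for all genes tested, and all 3 kept the call in all 5 scalings. POLR1B, the second-largest subunit, which forms the active centre with POLR1A, had 27.9, 28.4 and 29.4 CPM in the B23 libraries, against 82.1, 80.9 and 74.2 CPM in the DMSO libraries. Every B23 library lay below every DMSO library, and the mean was 2.77-fold lower (log2 difference -1.45, SE 0.042, limma adjusted p = 4.43e-20). POLR1B lies on chromosome 2 from 112541915 to 112577150 in GRCh38. POLR1E, a subunit of the dimer that helps the enzyme start transcription, had 24.5, 22.1 and 22.8 CPM in the B23 libraries, against 37.2, 34.7 and 35.6 CPM in the DMSO libraries. It was 1.55-fold lower without overlap of the groups (log2 difference -0.62, SE 0.047, limma adjusted p = 6.4e-12). POLR1A, the largest subunit, had 43.8, 46.5 and 47.5 CPM in the B23 libraries, against 53.0, 55.3 and 53.0 CPM in the DMSO libraries. The step was small, 1.17-fold, though the groups again did not overlap (log2 difference -0.23, SE 0.04, limma adjusted p = 1.23e-05).

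Outside the name patterns, the deposited table holds 3 more genes specific to RNA polymerase I. CD3EAP, the partner of POLR1E in its dimer, averaged 14.9 ± 0.7 CPM in B23 and 42.5 ± 1.11 CPM in DMSO (SD, n = 3 each) and fell (log2 difference -1.48, SE 0.046, limma adjusted p = 2.09e-19). CD3EAP overlaps ERCC1 and, over a few bases, PPP1R13L on the opposite strand, and no source used here says whether counting used strand, so reads of both cannot be told apart. TWISTNB was slightly lower, with a log2 difference of -0.13, and ZNRD1, which overlaps ZNRD1ASP on the opposite strand, was higher, at 0.31. Of the 6 genes specific to this enzyme, 5 were thus lower and 1 was higher, and the calls of TWISTNB and ZNRD1 did not hold in all 5 scalings.

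Of the pair that RNA polymerases I and III share, POLR1C was higher in all 5 scalings and the direction of POLR1D depended on the scaling. POLR1C and POLR1D form the dimer on which both enzymes assemble. POLR1C had 48.6, 47.8 and 50.8 CPM in the B23 libraries, against 30.9, 29.3 and 30.0 CPM in the DMSO libraries, with the groups apart. It was 1.63-fold higher (log2 difference 0.70, SE 0.041, limma adjusted p = 4.67e-14), and it overlaps XPO5 and YIPF3 on the opposite strand, both of which also rose. POLR1D had 142, 138 and 147 CPM in the B23 libraries, against 142, 142 and 137 CPM in the DMSO libraries. The groups overlap, and the log2 difference of 0.023 was not called (SE 0.034, limma adjusted p = 0.523). POLR1D was called lower with quantile normalization (-0.42) and the listed-gene total (-0.23) and higher with median-of-ratios scaling (0.13) and TMM (0.10).

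RNA polymerase III showed the widest spread of any role group among the members, with 4 of 9 genes higher, 4 lower and 1 not called, and log2 differences of -1.57 to 1.68. Of these, 3 rises and all 4 falls kept the call in all 5 scalings. The catalytic pair split. POLR3A, the largest subunit, had 147, 149 and 152 CPM in the B23 libraries, against 92.6, 93.1 and 87.9 CPM in the DMSO libraries. It was 1.64-fold higher with no overlap (log2 difference 0.71, SE 0.034, limma adjusted p = 1.04e-15). POLR3B, the second-largest subunit, had 8.66, 8.31 and 8.08 CPM in the B23 libraries, against 25.1, 26.8 and 25.2 CPM in the DMSO libraries. All B23 libraries were far below the DMSO libraries, and the mean was 3.08-fold lower (log2 difference -1.57, SE 0.054, limma adjusted p = 1.21e-18). In GRCh38, POLR3A lies on chromosome 10 from 77969251 to 78029545 and POLR3B on chromosome 12 from 106357658 to 106510198. No listed gene with at least 10% of their level overlaps their exons.

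The sequences just before the starts of POLR3A and POLR3B are shown because the genes encode partners in 1 active centre and moved in opposite directions. Both were taken from RefSeq on GRCh38.p14 and are printed 5′ to 3′ along the gene's strand, only as far as no annotated exon reaches. They begin 250 bases before the start and end 31 bases before it in POLR3A and 91 bases before it in POLR3B. Capitals mark the ETS core, CCGGAAG, 1 of 5 motifs searched.
POLR3A, chr10:78029546-78029765, minus strand: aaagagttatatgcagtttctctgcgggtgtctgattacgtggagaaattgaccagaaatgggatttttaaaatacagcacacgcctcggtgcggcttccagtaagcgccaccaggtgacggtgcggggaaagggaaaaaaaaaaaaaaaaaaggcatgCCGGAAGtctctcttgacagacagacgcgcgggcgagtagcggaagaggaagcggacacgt
POLR3B, chr12:106357498-106357657, plus strand: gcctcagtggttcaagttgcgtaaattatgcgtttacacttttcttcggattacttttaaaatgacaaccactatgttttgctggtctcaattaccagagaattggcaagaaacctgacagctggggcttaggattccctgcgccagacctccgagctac
The stretch of POLR3A holds 1 such match and that of POLR3B holds none of the 5 motifs, which says only that these letters are not in this window. An E-box that begins 35 bases before the start of POLR3A runs past the end of the stretch shown.

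Among the subunits that open and hold the promoter, POLR3C rose the most. POLR3C is part of the subcomplex that RNA polymerase III needs for initiation, together with POLR3F and either POLR3G or POLR3GL. It had 121, 124 and 127 CPM in the B23 libraries, against 38.2, 37.9 and 38.9 CPM in the DMSO libraries. The B23 libraries lay 3.24-fold higher with no overlap (log2 difference 1.68, SE 0.035, limma adjusted p = 9.44e-23). POLR3F was higher by a log2 difference of 0.29, a call that did not hold in all 5 scalings, and it overlaps DZANK1 on the opposite strand. The alternative subunits of this subcomplex both fell. POLR3G, the form known for stem and tumour cells, had 10.1, 10.7 and 10.4 CPM in the B23 libraries, against 14.9, 15.6 and 14.3 CPM in the DMSO libraries, 1.43-fold lower (log2 difference -0.50, SE 0.057, limma adjusted p = 1.24e-08). POLR3GL, the form of most differentiated tissues, had 11.1, 12.3 and 11.3 CPM in the B23 libraries, against 23.8, 24.5 and 21.6 CPM in the DMSO libraries, 2.02-fold lower (log2 difference -0.98, SE 0.057, limma adjusted p = 4.03e-14). In both genes the groups did not overlap, and both overlap other listed rows: MBLAC2 on the opposite strand of POLR3G, at 6.26 CPM in B23 and 33.4 CPM in DMSO, and AC243547.3 on the strand of POLR3GL.

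CRCP, POLR3D, POLR3E and POLR3K moved less than POLR3C and POLR3B. CRCP, a subunit that the name patterns do not take, averaged 70.6 ± 0.668 CPM in B23 and 49.6 ± 0.434 CPM in DMSO (SD, n = 3 each) and rose (log2 difference 0.50, SE 0.035, limma adjusted p = 1.48e-12), and it overlaps AC068533.4 on its own strand. POLR3D and POLR3E form a dimer that resembles the RNA polymerase II factor TFIIF. POLR3D had 80.6, 77.2 and 80.0 CPM in the B23 libraries, against 78.5, 77.8 and 73.9 CPM in the DMSO libraries. The groups overlap and POLR3D was not called, with a log2 difference of 0.047 (limma adjusted p = 0.217), while it was called lower with quantile normalization (-0.22) and higher with median-of-ratios scaling (0.16). POLR3E was lower at -0.37. POLR3K, the small subunit for RNA cleavage and termination, was higher at 0.58 and overlaps SNRNP25 on the opposite strand, which fell.

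Per kilobase of exon, levels of these 9 RNA polymerase III genes ran from 1.72 to 44.4 CPM per kb in B23, a 25.9-fold spread. In DMSO they ran from 3.71 to 22.9 CPM per kb, a 6.16-fold spread. The exon lengths are of all annotated exons together, so these levels are approximate.

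**Figure D3:**
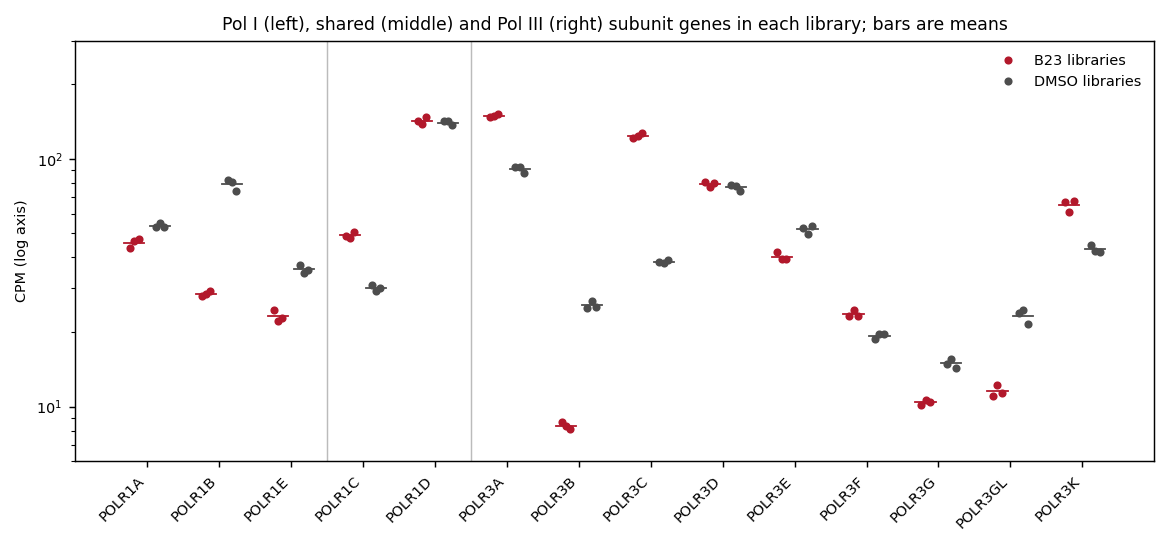
CPM of the subunit genes in each library on a log axis, with B23 left of DMSO for each gene and bars at the means; from left to right, genes of RNA polymerase I, shared genes and genes of RNA polymerase III. POLR3B and POLR1B lie far lower in all 3 B23 libraries and POLR3C far higher, while the libraries of POLR1D and POLR3D mix.

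Of the 4 factors and phosphoproteins that act with RNA polymerase I, 3 were higher and 1 lower, and the median log2 difference of 0.51 turned to -0.013 with quantile normalization. RRN3, which carries the enzyme to the rDNA promoter and is the main point at which growth signals act on it, had 101, 109 and 102 CPM in the B23 libraries, against 51.6, 51.1 and 48.4 CPM in the DMSO libraries. The B23 libraries were 2.07-fold higher with no overlap (log2 difference 1.04, SE 0.039, limma adjusted p = 5.44e-18), and RRN3 is the 1 of the 3 rises that kept the call in all 5 scalings. A pseudogene row, RRN3P1, stood at 14.5 CPM in B23 and 7.25 CPM in DMSO, so reads shared between near-identical copies are uncertain. UBTF, the architectural protein that keeps rDNA open along its length, had 81.7, 83.5 and 79.4 CPM in the B23 libraries, against 114, 116 and 119 CPM in the DMSO libraries. UBTF was 1.43-fold lower, with the groups apart in all libraries (log2 difference -0.51, SE 0.035, limma adjusted p = 9.53e-13).

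TCOF1, the treacle protein, which binds UBTF and RNA polymerase I, had 297, 296 and 307 CPM in the B23 libraries, against 224, 219 and 214 CPM in the DMSO libraries, 1.37-fold higher (log2 difference 0.45, SE 0.034, limma adjusted p = 5.73e-12). NOLC1, a related serine-rich phosphoprotein that accompanies small nucleolar RNPs, had 385, 399.9 and 393 CPM in the B23 libraries, against 274, 267 and 258 CPM in the DMSO libraries, 1.48-fold higher (log2 difference 0.56, SE 0.035, limma adjusted p = 1.44e-13). The groups did not overlap in either gene. With quantile normalization, however, TCOF1 was called lower, at -0.088 (limma adjusted p = 0.0131), and NOLC1 stood at 0.062 without a call, so their rises depend on the scaling.

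The small nucleolar RNP proteins among the members are set out by class, beside 39.6% higher and 49.0% lower among all genes tested. Of the box C/D class, which guides 2′-O-methylation, the 3 members all rose. Of the box H/ACA class, which guides pseudouridylation, 3 of 4 fell. SNU13, also a core protein of box C/D particles, is not a member. It was higher at 0.29, a call that did not hold in all 5 scalings, and overlaps C22orf46 on the opposite strand. NOP58, a scaffold of box C/D particles, had 146, 158 and 144 CPM in the B23 libraries, against 54.9, 58.6 and 57.8 CPM in the DMSO libraries. It was 2.61-fold higher with no overlap (log2 difference 1.38, SE 0.039, limma adjusted p = 3.96e-20). NOP56, its partner scaffold, had 382, 381 and 388 CPM in the B23 libraries, against 197, 191 and 195 CPM in the DMSO libraries, 1.97-fold higher (log2 difference 0.98, SE 0.033, limma adjusted p = 6.78e-19). FBL, the methyltransferase fibrillarin, had 364, 351 and 375 CPM in the B23 libraries, against 235, 243 and 250 CPM in the DMSO libraries. FBL was 1.5-fold higher with the groups apart (log2 difference 0.58, SE 0.036, limma adjusted p = 1.35e-13), but its difference was 0.053 and not called with quantile normalization, while NOP58 and NOP56 kept theirs in all 5 scalings.

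DKC1, the pseudouridine synthase dyskerin, had 123, 124 and 122 CPM in the B23 libraries, against 156, 156 and 152 CPM in the DMSO libraries. It was 1.26-fold lower, with every B23 library below every DMSO library (log2 difference -0.33, SE 0.032, limma adjusted p = 1.08e-09). NOP10, a small protein of the same core, had 29.1, 27.8 and 30.0 CPM in the B23 libraries, against 47.7, 45.4 and 42.8 CPM in the DMSO libraries, 1.56-fold lower (log2 difference -0.64, SE 0.045, limma adjusted p = 1.95e-12). NHP2 was lower too, at -0.34, and overlaps RMND5B on the opposite strand. All 3 of these falls kept the call in all 5 scalings. GAR1, the fourth protein of the H/ACA core, was higher at 0.32, a call that did not hold in all 5. Whether the classes differ from each other was not tested.

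Nucleolin and nucleophosmin, abundant proteins of the nucleolus, moved in opposite directions. NCL had 363, 378 and 371 CPM in the B23 libraries, against 532, 537 and 511 CPM in the DMSO libraries. The B23 libraries were 1.42-fold lower with no overlap (log2 difference -0.51, SE 0.035, limma adjusted p = 1.3e-12), a call kept in all 5 scalings. NPM1 had 1098, 1139 and 1132 CPM in the B23 libraries, against 821, 913 and 955 CPM in the DMSO libraries. The B23 libraries were higher (log2 difference 0.33, SE 0.045, limma adjusted p = 4.51e-07), without overlap, but the difference was 0.076 and not called with the listed-gene total. Rows of the pseudogenes NPM1P27 and NPM1P6 were listed at 12 and 1.44 CPM in B23 and at 9.47 and 1.16 CPM in DMSO, so a small part of the reads is uncertain.

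In the SSU processome, the particle that starts making the small subunit around the U3 small nucleolar RNA, 10 of 20 members were higher, 9 lower and 1 not called. The median log2 difference of 0.17 was below 0 with quantile normalization, at -0.027, and with the listed-gene total, at -0.081. There were 9 rises and 7 falls that kept the call in all 5 scalings. NOC4L, which works with NOP14 in the middle of the particle, had 54.1, 48.7 and 50.4 CPM in the B23 libraries, against 15.1, 15.2 and 14.7 CPM in the DMSO libraries. NOC4L was 3.40-fold higher with no overlap (log2 difference 1.73, SE 0.046, limma adjusted p = 8.07e-21), and NOP14 was higher as well, at 0.80. UTP20, a very large scaffold of helical repeats, had 60.8, 62.7 and 63.8 CPM in the B23 libraries, against 25.4, 26.1 and 23.7 CPM in the DMSO libraries, 2.49-fold higher (log2 difference 1.30, SE 0.042, limma adjusted p = 4.4e-19). UTP14A, the activator of the helicase DHX37, had 98.8, 106 and 97.7 CPM in the B23 libraries, against 44.5, 43.8 and 44.0 CPM in the DMSO libraries, 2.28-fold higher (log2 difference 1.18, SE 0.037, limma adjusted p = 2.38e-19). Every B23 library of these genes lay above every DMSO library, and DHX37 itself averaged 69.8 ± 2.67 CPM in B23 and 29.6 ± 1.15 CPM in DMSO (SD, n = 3 each) and rose (log2 difference 1.22, SE 0.041, limma adjusted p = 8.77e-19).

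The other rises were those of UTP4 (1.14), UTP23 (0.99), RRP9 (0.84), NOL10 (0.64), UTP18 (0.34) and NOL11 (0.26), given as log2 differences. UTP4, UTP15 and NOL11 belong to UTP-A, the first subcomplex to bind the precursor, and UTP15 was lower at -1.06. UTP23 overlaps RAD21 and EIF3H on the opposite strand, and both of them rose too. On the opposite strands of UTP4, UTP15 and NOL7 lie CHTF8, ANKRA2 and RANBP9. ANKRA2 (-0.79) fell as UTP15 did, while CHTF8 (-0.97) and RANBP9 (0.94) moved against UTP4 and NOL7. Falls were those of UTP15, UTP25 (-0.81), NOL6 (-0.73), UTP14C (-0.43), UTP6 (-0.32), NOL7 (-0.26), RRP36 (-0.25) and UTP3 (-0.18). The exons of UTP14C are shared over 74.2% of their length with ALG11 on the same strand, which fell likewise, at 18.2 CPM in B23 and 24.4 CPM in DMSO. UTP3 was not called with median-of-ratios, TMM or quantile scaling, nor NOL11 with quantile normalization or the listed-gene total. UTP11 was called at -0.094 although its groups overlap, and its call was lost with DESeq2, without trend, with TMM, without B23 replicate 1 or 3 or DMSO replicate 1, and with median-of-ratios scaling, which put it at 0.014. UTP18 and UTP6, both of UTP-B, stood on opposite sides. RRP7A had 79.2, 72.7 and 78.2 CPM in the B23 libraries, against 71.9, 75.6 and 70.7 CPM in the DMSO libraries. Its groups overlap and it was not called, with a log2 difference of 0.075 (limma adjusted p = 0.073), but it was called lower with the listed-gene total (-0.18) and higher with median-of-ratios scaling (0.18).

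The 250 bases before the starts of UTP20 and UTP25 are shown as a pair of processome genes that moved in opposite directions and whose windows hold no annotated exon. Sequence and build are as above, and capitals mark the E-box, CACGTG.
UTP20, chr12:101279855-101280104, plus strand: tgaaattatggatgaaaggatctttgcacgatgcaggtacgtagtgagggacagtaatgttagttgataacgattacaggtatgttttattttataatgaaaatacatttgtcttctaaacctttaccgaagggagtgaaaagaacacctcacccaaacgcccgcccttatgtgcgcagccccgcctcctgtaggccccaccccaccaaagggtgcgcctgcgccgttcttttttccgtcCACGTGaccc
UTP25, chr1:209827722-209827971, plus strand: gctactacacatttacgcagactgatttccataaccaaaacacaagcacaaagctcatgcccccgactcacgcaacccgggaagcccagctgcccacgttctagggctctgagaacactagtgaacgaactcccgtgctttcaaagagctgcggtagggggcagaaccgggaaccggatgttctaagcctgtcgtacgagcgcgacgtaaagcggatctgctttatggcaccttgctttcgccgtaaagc
UTP20 has its 1 E-box 10 bases before the start, and UTP25 holds none of the 5 motifs.

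RefSeq gave a promoter for 58 of the 71 genes, and 5 motifs were searched on both strands of the 250 bases before the start. For 46 of these 58, the 50 bases after the start lie in an annotated transcript of the gene. Some windows, such as those of PES1 and UTP11, lie inside the annotated gene. The ETS core was found in 31.0% of the members' windows, against 15.5% of those of listed genes and 8.82% of all 27305 promoters. The E-box was found in 15.5%, against 8.90% of listed genes and 6.49% of all promoters. CTCGCGAG, a palindrome common before housekeeping genes, was found in 8.62%, against 1.72% and 0.916%. The NRF1 core, GCATGCGC, was in 6.90%, against 4.71% and 2.81%, and the YY1 core, AAGATGGC, in 3.45%, against 1.82% and 1.37%. None of the 5 words contains another, and 31 members had no match. Among members with a window, the ETS core was in 11 of 29 that were higher and 7 of 27 that were lower, and the E-box in 6 and 3 of them. A match describes the letters only, and no test was made of these shares.

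After the processome, 4 members act on the small subunit, of which 2 were higher and 2 lower, with a median log2 difference of -0.093 that became 0.015 with median-of-ratios scaling. RRP12, needed for export and maturation of pre-40S particles, had the largest rise of the 71 genes. It had 153, 148 and 150.2 CPM in the B23 libraries, against 43.6, 43.0 and 42.9 CPM in the DMSO libraries. The B23 mean was 3.48-fold higher, with the groups far apart (log2 difference 1.79, SE 0.034, limma adjusted p = 1.81e-23), and RRP12 lies on chromosome 10 from 97356358 to 97426076 in GRCh38. BYSL, bystin, had 36.4, 33.5 and 36.4 CPM in the B23 libraries, against 47.4, 49.1 and 49.1 CPM in the DMSO libraries, 1.37-fold lower (log2 difference -0.45, SE 0.042, limma adjusted p = 3.5e-10). NOP9, an RNA-binding protein of pre-40S particles, had 26.0, 26.3 and 23.8 CPM in the B23 libraries, against 35.9, 32.5 and 34.2 CPM in the DMSO libraries, 1.35-fold lower (log2 difference -0.42, SE 0.048, limma adjusted p = 1.5e-08). The libraries of BYSL and NOP9 did not overlap between groups, and NOP9 overlaps LTB4R2 on its own strand. DIMT1, the methyltransferase of 2 adjacent adenosines near the end of 18S rRNA, was higher at 0.24, but stood at -0.0091 without a call with the listed-gene total.

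Of the 16 members that build the 60S subunit, 8 were higher and 8 lower, and 5 rises and 6 falls kept the call in all 5 scalings. Their median of -0.0084 lay above 0 with median-of-ratios scaling, at 0.099, and with TMM, at 0.068. NOC3L, which pairs with other NOC proteins on early pre-60S particles, had 178, 182 and 181 CPM in the B23 libraries, against 78.8, 78.9 and 72.8 CPM in the DMSO libraries. NOC3L was 2.34-fold higher without overlap (log2 difference 1.23, SE 0.036, limma adjusted p = 5.53e-20), and NOC2L rose as well, at 0.70, with SAMD11 on its opposite strand. BOP1, PES1 and WDR12 form the PeBoW complex, which is required to process the 32S precursor. BOP1 (0.98) and PES1 (0.89) were higher and WDR12 (-0.37), which overlaps a few bases of CARF on the opposite strand, was lower.

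NIP7, a factor of 60S biogenesis in yeast and human cells, had 23.1, 22.7 and 22.1 CPM in the B23 libraries, against 60.6, 56.0 and 54.6 CPM in the DMSO libraries. It was 2.52-fold lower with no overlap (log2 difference -1.31, SE 0.044, limma adjusted p = 7.16e-19). On the opposite strand, COG8, which overlaps 20.2% of the exon length of NIP7, was lower too, at 29.3 CPM in B23 and 86.0 CPM in DMSO. RRS1, which brings the 5S RNP into the large subunit, had 11.2, 11.7 and 11 CPM in the B23 libraries, against 28.2, 25.8 and 24.5 CPM in the DMSO libraries. RRS1 was 2.32-fold lower (log2 difference -1.18, SE 0.055, limma adjusted p = 6.03e-16). The gene has a single exon and overlaps AC009879.2 on its own strand. Smaller falls were those of NOP16 (-0.52), NOP2 (-0.46), RRP1B (-0.40), NOL8 (-0.16) and RRP1 (-0.15), the last pair without a call under median-of-ratios scaling and TMM. Smaller rises were those of NOL12 (0.47) and RRP15 (0.32), the second not called with the listed-gene total. NOP53 was higher at 0.20 as deposited but was called lower, at -0.34, with quantile normalization, and stood at -0.050 with the listed-gene total. NOL9 was called at 0.13, and its call was lost with the listed-gene total (-0.12), with DESeq2 and without B23 replicate 1, B23 replicate 2 or DMSO replicate 3. On the opposite strand, NOP16 overlaps ARL10 and HIGD2A and NOL8 overlaps CENPP, while NOL12 overlaps Z83844.1 on its own strand. NOP2, a methyltransferase of 28S rRNA, shares 54.4% of its exon length with AC006064.6 on its own strand, which was higher, so its value is uncertain.

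**Figure D4:**
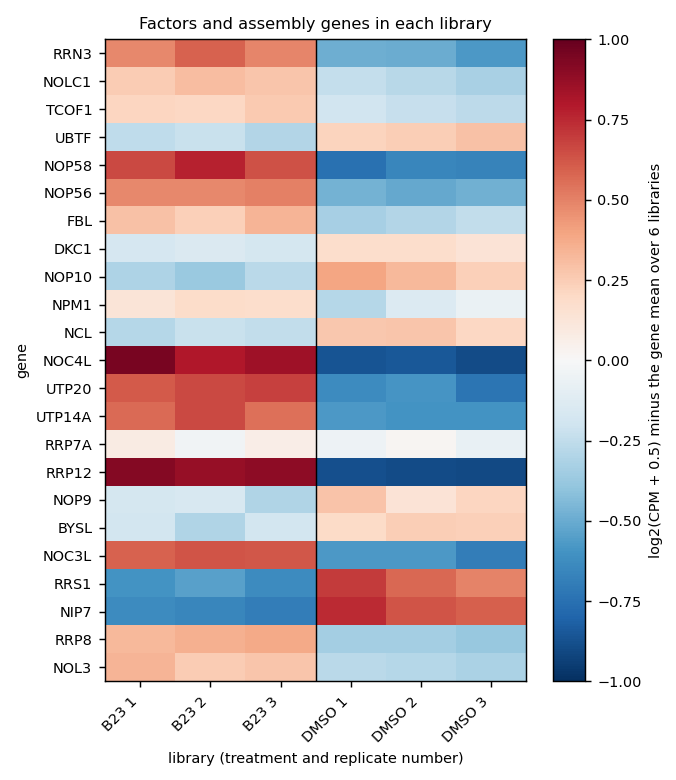
Log2(CPM + 0.5) of factor and assembly genes in each library, minus the gene's mean over the 6 libraries, with the 3 B23 libraries on the left and the 3 DMSO libraries on the right. Within most role groups, genes with B23 columns in red, such as RRP12 and NOC3L, stand beside genes with B23 columns in blue, such as BYSL and NIP7. The genes shown of the SSU processome, and those of the group with RRP8 and NOL3, include none that was called lower.

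The name patterns also take 3 genes that were set apart here from the assembly groups. RRP8, a nucleolar methyltransferase that silences rDNA and modifies an adenosine of 28S rRNA, had 52.1, 53.1 and 53.8 CPM in the B23 libraries, against 32.6, 32.6 and 31.6 CPM in the DMSO libraries, 1.64-fold higher (log2 difference 0.71, SE 0.038, limma adjusted p = 1.22e-14). NOL3, an apoptosis repressor, had 9.47, 8.89 and 9.01 CPM in the B23 libraries, against 6.0, 5.94 and 5.81 CPM in the DMSO libraries, 1.54-fold higher (log2 difference 0.58, SE 0.065, limma adjusted p = 1.08e-08), and it overlaps KIAA0895L on the opposite strand. The groups did not overlap in either. NOL4, the member with the lowest level, averaged 4.5 ± 0.401 CPM in B23 and 2.89 ± 0.338 CPM in DMSO (SD, n = 3 each), with a log2 difference of 0.56. Without these 3 genes there were 33 members higher and 32 lower.

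Related genes were set side by side in 4 pairs, as ratios of CPM within each library. UTP14A over UTP14C, a retrotransposed copy of UTP14A, was 4.85, 5.10 and 4.61 in B23 and 1.52, 1.59 and 1.60 in DMSO. Most of the exon length of UTP14C, 74.2%, is shared with ALG11, so this ratio may hold reads of ALG11. POLR3G over POLR3GL was 0.916, 0.869 and 0.919 in B23 and 0.624, 0.636 and 0.663 in DMSO. RRP1 over RRP1B averaged 0.726 ± 0.020 in B23 and 0.610 ± 0.016 in DMSO, and NOLC1 over TCOF1 averaged 1.31 ± 0.038 in B23 and 1.21 ± 0.0078 in DMSO (SD, n = 3 each). All 4 ratios were higher in every B23 library, and each had an exact two-sided permutation p = 0.1, also after adjustment over the 4 pairs, the smallest that 3 against 3 allows.

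The members differ in gene structure, and their differences were set beside it as a description. Across the 71 genes, Spearman's rho between exon number and log2 difference was 0.27, against 0.30 across 13211 coding genes; genes of 1 table share libraries and are not independent. The 2 members with a single exon had a median of -0.68, against -1.21 for 207 coding genes of that kind. The 8 with 2 to 5 exons had a median of -0.16, against -0.49 for coding genes, and the 16 with 6 to 10 exons -0.023, against -0.065. Medians were 0.28 for 22 members with 11 to 15 exons, 0.48 for 12 with 16 to 20 and 0.45 for 11 with more than 20, against 0.095, 0.14 and 0.15 for coding genes. The part of gene structure in the members' differences was not tested.

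**Figure D5:**
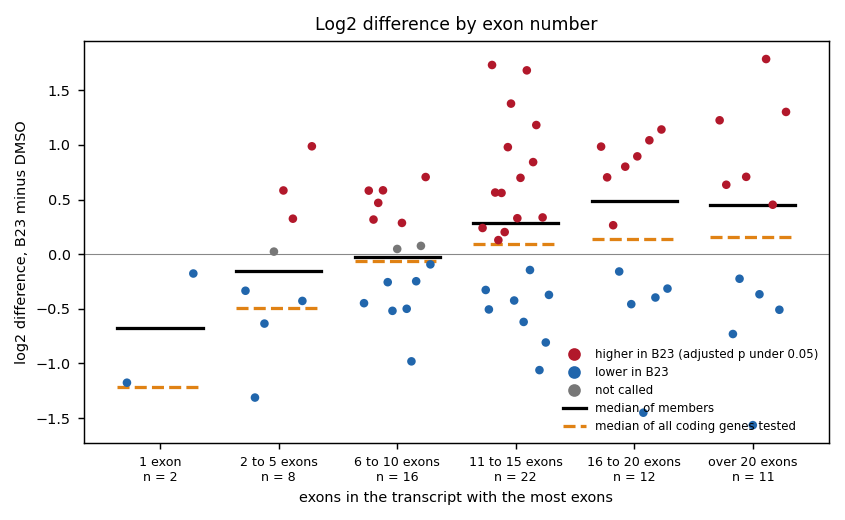
Log2 difference, B23 minus DMSO, of the same 70 members by the number of exons of its longest-spliced transcript, with black bars for the median of all 71 members and orange dashed bars for the median of all coding genes tested. The member medians lie at -0.68 for 1 exon and at 0.45 for more than 20 exons, and most bins hold fewer than 20 members.

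Small nucleolar RNA genes lie inside 7 members, namely NOP56, NOP58, NCL, DKC1, NOL11, NOP53 and POLR1C, with 5 in NOP56 and 4 in NOP58. Of these hosts 5 were higher and 2 lower, and among 236 coding host genes tested 129 were higher and 81 lower. Among all genes tested, 39.6% were higher and 49.0% lower. The rises of NOL11 and NOP53 did not hold in all 5 scalings. The small nucleolar RNAs themselves were not analysed here.

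A longer list of the pathway, of 124 listed genes that the name patterns do not take, gave 80 higher (64.5%), 30 lower (24.2%) and 14 not called, with a median log2 difference of 0.30. These shares stand beside 39.6% higher and 49.0% lower among all genes tested, and 56 rises and 25 falls kept the call in all 5 scalings. With the listed-gene total 59 were higher and 47 lower, and with quantile normalization 69 and 46. Late 40S assembly stood highest, with 7 of 9 higher, 2 lower and a median of 1.23. The kinase genes RIOK3 and RIOK1, which act on late pre-40S particles, averaged 229.5 ± 5.67 CPM in B23 and 49.7 ± 0.563 CPM in DMSO (SD, n = 3 each) for RIOK3 and 139.6 ± 3.53 CPM in B23 and 45.4 ± 2.70 CPM in DMSO (SD, n = 3 each) for RIOK1. Both rose, RIOK3 with a log2 difference of 2.20 and RIOK1 with 1.61.

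For the large subunit, 30 of 42 of these genes were higher, 3 lower and 9 not called. GNL2, a GTPase of pre-60S export, averaged 329 ± 5.34 CPM in B23 and 109 ± 1.98 CPM in DMSO (SD, n = 3 each) (log2 difference 1.59, SE 0.033, limma adjusted p = 7.27e-23). LAS1L, which forms a nuclease complex with NOL9, averaged 125 ± 0.8 CPM in B23 and 46.1 ± 2.48 CPM in DMSO (SD, n = 3 each) (log2 difference 1.43, SE 0.038, limma adjusted p = 1.04e-20). Of 28 further processome genes 17 were higher, 9 lower and 2 not called. IMP3, which joins the U3 small nucleolar RNA to the precursor, had the largest fall among them, with 14.1 ± 0.808 CPM in B23 and 70.7 ± 4.11 CPM in DMSO (SD, n = 3 each) (log2 difference -2.28, SE 0.049, limma adjusted p = 2.71e-22), and it overlaps SNX33 on the opposite strand.

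Factors of RNA polymerase I split into 5 higher and 4 lower. TAF1D, a subunit of the promoter factor SL1, averaged 420.3 ± 15.6 CPM in B23 and 69.2 ± 4.92 CPM in DMSO (SD, n = 3 each) (log2 difference 2.6, SE 0.044, limma adjusted p = 2.56e-21), and it overlaps CEP295, MED17 and AP001273.2 on the opposite strand. TAF1D also holds 8 small nucleolar RNA genes. DDX21, a helicase found with both RNA polymerases I and II, averaged 1290 ± 25.2 CPM in B23 and 442 ± 4.64 CPM in DMSO (SD, n = 3 each) (log2 difference 1.54, SE 0.035, limma adjusted p = 4.76e-22). Factors of RNA polymerase III gave 10 higher, 6 lower and 1 not called, led by BDP1 of TFIIIB at 1.17 and GTF3C5 of TFIIIC at 1.04. Among 10 genes of small nucleolar RNP assembly, 6 were higher, 3 lower and 1 not called. PIH1D1, of the R2TP complex, rose by 1.57 and overlaps ALDH16A1 on the opposite strand. SHQ1, the chaperone of dyskerin, averaged 14.5 ± 0.429 CPM in B23 and 51.1 ± 2.88 CPM in DMSO (SD, n = 3 each) and fell (log2 difference -1.78, SE 0.047, limma adjusted p = 8.05e-21). Its direction was that of DKC1, NHP2 and NOP10 and the opposite of that of GAR1.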

How the data were processed

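Polyadenylated RNA of 3 B23-treated and 3 DMSO-treated HEK293 samples was sequenced, with groups taken from the treatment label. The submitters' processing notes name STAR 2.6.1d, SAMtools, HTSeq and edgeR with the build hg38, and the labels' protocols name a stranded mRNA kit. Not given in the sources used here are the annotation, whether counting used strand, how genes were chosen for the table and how the CPM were scaled. The deposited values are CPM, 1 column per library, for 15496 gene symbols, per the labels and the values. They are whole multiples of 1 read, and 100% came out whole within 0.001 reads. In B23 1 read was worth 0.0197 to 0.0217 CPM and in DMSO 0.0158 to 0.0164 CPM.

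The 14792 genes averaging 1 CPM or more were transformed to log2(CPM + 0.5) and fitted on the whole table with limma 3.58.1 under R 4.3.3, with trend and robust empirical Bayes. Tests were two-sided, with a threshold of 0.05 on p-values after Benjamini-Hochberg adjustment. Differences on this scale understate the change of low genes, and folds are ratios of mean CPM. Positions, exons and overlaps come from GENCODE 29 on GRCh38, the assembly of hg38, matched by symbol, and promoters from RefSeq on GRCh38.p14. The members, roles, lists and rules were chosen with earlier results of these data known. Values in every library were given for a fixed set of key genes, for up to 3 called members with the largest differences in each role group among those with a mean of at least 5 CPM, and for each member not called. The values of 1 member are not reported here, though counts over the 71 include it. Other members are given by log2 difference, and of the other pathway genes up to 2 per group are named by the same rule. TWISTNB, ZNRD1 and SNU13 are named in addition.

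Also tried were a pseudocount of 0.1 or 2, the filter dropped or set to 5 CPM, median-of-ratios, TMM, quantile and listed-gene total scaling, no trend, a replicate block, an adjusted p under 0.01, removal of 142 rows that share reads, each library left out, and, on recovered reads, DESeq2 1.42.0 and the quasi-likelihood test of edgeR 4.0.16. A count without NOL3, NOL4 and RRP8 was added after seeing the data. The fit was tested on simulated data in which few genes changed and no scaling difference was set. That test does not bear on the scaling of these libraries.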

Additional observations from a re-analysis of the deposited data

How the results depend on the processing

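The scaling of the libraries moved these results most. The median log2 difference of the members, 0.13 as deposited, was 0.23 with median-of-ratios scaling, 0.20 with TMM, -0.097 with quantile normalization and -0.12 with the listed-gene total. In the same order, the median of all genes tested was -0.10, 0.0015, -0.029, -0.027 and -0.34. The members thus lay below all genes only with quantile normalization. Other pathway genes lower in B23 numbered 46 with quantile normalization and 47 with the listed-gene total, against 30. Quantile normalization turned the medians of the RNA polymerase I factors (-0.013) and the SSU processome (-0.027) and the differences of POLR1D (-0.42), POLR3D (-0.22), RRP7A (-0.17), TCOF1 (-0.088) and NOP53 (-0.34), each of these genes then called lower. The listed-gene total turned the SSU processome median (-0.081), POLR1D (-0.23), POLR3D (-0.20) and RRP7A (-0.18), these genes again called lower, and NOL9 (-0.12), NOP53 (-0.050) and DIMT1 (-0.0091), which were not called. Median-of-ratios scaling turned the medians of the nucleolar proteins (0.020), later 40S assembly (0.015) and 60S assembly (0.099) and the difference of UTP11 (0.014), and TMM the 60S median (0.068). FBL (0.053, limma adjusted p = 0.138) and NOLC1 (0.062, 0.0719) were not called with quantile normalization, nor NPM1 (0.076, 0.0865) with the listed-gene total, while POLR1D, POLR3D and RRP7A were called higher with median-of-ratios and TMM scaling, so these genes were called in both directions. Median-of-ratios, TMM and listed-gene total scaling divide each library by a factor of its own, which moves all genes by about the same amount. Why the scalings differ from each other was not tested.

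Leaving out 1 library at a time gave 35 to 37 members higher and 31 to 32 lower, and a median of 0.080 to 0.17. The 60S median ran from -0.047 to 0.021 and the difference of POLR1D from -0.00053 to 0.043, and RRP7A was called without B23 replicate 2 or DMSO replicate 2. NOL9 lost its call without B23 replicate 1 (limma adjusted p = 0.103), B23 replicate 2 (0.0519) or DMSO replicate 3 (0.197), and UTP11 without B23 replicate 1 (0.171), B23 replicate 3 (0.109) or DMSO replicate 1 (0.159). With edgeR on the recovered reads 36 members were higher and 32 lower, and with DESeq2, which called neither NOL9 nor UTP11, 35 and 31, while all genes called numbered 13136 and 12900. Replicate numbers did not pair the samples: deviations of same-numbered libraries correlated at 0.026, -0.070 and -0.062. With a replicate block 36 members were higher and 32 lower, and of the other pathway genes 81 and 31.

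The filter at 5 CPM left out NOL4, whose mean lies below it. What depth limits among the members was not tested.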
